A study of Mus musculus with 6 samples.

Results

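The 10 genes described here are those that make, bind, sense or break down retinoic acid, the vitamin A derivative that patterns the early embryo, namely Rdh10, Dhrs3, Aldh1a2, Aldh1a3, Crabp1, Crabp2, Cyp26a1, Cyp26b1, Cyp26c1 and Rarb. They were chosen by symbol, from the pathway's textbook enzymes and binding proteins, with earlier results of these data known. Each of the 10 matched 1 of the 54532 Ensembl gene IDs in the files. Total RNA was sequenced from heads of mouse embryos at embryonic day 8.5. In 3 pools the embryos lacked Sf3b4, a subunit of the spliceosome's SF3B complex, in neural crest cells. The other 3 pools were from Sf3b4 wild-type embryos. Each pool held 3 heads, taken before the embryos looked abnormal. The sample titles call the mutants homozygous nulls, whereas the genotype entries and the design text name a mutant of neural crest cells, the reading used here. How the deletion was driven in these cells is not named in the sources used here. Cells of the head outside the crest therefore keep the gene in that reading, and a pool averages crest with brain, ectoderm, mesoderm and other tissue.

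Retinoic acid is made in steps from retinol (vitamin A). RDH10 oxidises retinol to retinaldehyde, DHRS3 turns retinaldehyde back into retinol, and the retinaldehyde dehydrogenases ALDH1A2 and ALDH1A3 carry out the irreversible step to retinoic acid. CRABP1 and CRABP2 bind retinoic acid in the cytosol, the CYP26 enzymes oxidise it to inactive products, and receptors such as RARB bind it in the nucleus and act on response elements in DNA. In the early mouse embryo Aldh1a2 is the main source in trunk mesoderm, Aldh1a3 is known from the region of the eye and nose, and the Cyp26 genes keep parts of the head low in retinoic acid.

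A pair of sequence windows are shown because they hold the best known link between retinoic acid and its own machinery, a response element made of a direct repeat with 5 bases between its half-sites (DR5). The windows are the 250 bases before the start site in RefSeq (GRCm38.p6), read 5′ to 3′ on the gene's strand, with the DR5 element in capitals. The Cyp26a1 window is chr19:37697558-37697807 on the plus strand and the Rarb window is chr14:16575477-16575726 on the minus strand.
Cyp26a1: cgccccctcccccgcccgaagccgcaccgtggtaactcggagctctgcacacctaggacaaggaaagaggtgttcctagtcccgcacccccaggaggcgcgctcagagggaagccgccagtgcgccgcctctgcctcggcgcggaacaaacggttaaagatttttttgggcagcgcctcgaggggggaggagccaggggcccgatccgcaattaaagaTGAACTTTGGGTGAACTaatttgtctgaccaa
Rarb: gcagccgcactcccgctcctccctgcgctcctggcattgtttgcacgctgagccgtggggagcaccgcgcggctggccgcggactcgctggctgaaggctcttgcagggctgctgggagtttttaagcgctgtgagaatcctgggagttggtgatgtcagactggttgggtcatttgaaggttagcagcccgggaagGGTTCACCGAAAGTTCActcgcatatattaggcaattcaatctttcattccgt
Read on the strand that spells the half-sites, with these in capitals, the elements compare as follows.
Cyp26a1 DR5 element: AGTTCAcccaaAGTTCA
Rarb DR5 element: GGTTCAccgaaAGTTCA
The half-site AGGTCA was searched on both strands together with the variant AGTTCA (in both elements), the variant GGTTCA (in Rarb) and a further variant spelled GGGTCA. The Cyp26a1 element lies at bases -32 to -16 from the start and the Rarb element at -53 to -37. The same DR5 letters were found in 32 of 32851 RefSeq windows of 250 bases before and 50 after a start (0.0974%), whereas a single half-site, which each DR5 contains, was found in 43.7%. Windows were at hand for 7 of the 10 genes, and no DR5 or DR2 (2 bases between half-sites) match lay in those of Aldh1a2, Crabp1, Cyp26b1, Cyp26c1 or Dhrs3. A match is a run of letters and not a shown binding site. The Rarb window belongs to an internal start of the gene, and counts per gene do not show which start was used.

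The mutant pools held 7420956 to 12251910 counts and the wild-type pools 6930827 to 11797020. At this depth 14008 genes were tested, and 914 of them (6.52%) passed the threshold of 0.05 on the adjusted p (edgeR quasi-likelihood test), with 371 higher (2.65%) and 543 lower (3.88%) in the mutant pools. When gene length and GC content were corrected for, 685 were higher and 574 lower. Sf3b4 was read at 56.1, 64.2 and 60.9 CPM (read counts scaled by TMM factors to a library of 1e+06) in mutant pools and at 77.7, 72.8 and 63.9 CPM in wild-type pools, so that its log2 fold change was -0.24 with an SE of 0.0918 (edgeR adjusted p = 0.128). Y-linked genes had 1 read in mutant replicate 3 and 1 in wild-type replicate 1, against 344 to 664 in the other pools. Head genes were present, with the forebrain and midbrain gene Otx2 at 124 ± 7.97 CPM in mutant and 124 ± 4.93 CPM in wild-type pools (SD, n = 3 each). Of 14 genes of somites and trunk mesoderm 5 passed the filter on low counts, 7 had fewer counts and Hoxc8 and Hoxc9 had none in any pool. Litters are not named in the labels, so it is not known how many litters the pools came from. The p-values measure the spread between these pools. Part of that spread may be technical, though by their Y-linked reads the pools of a genotype did not all hold the same embryos.

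All 10 genes passed the filter on low counts. Of them 2 rose (Cyp26a1 and Cyp26c1), 1 fell (Aldh1a3) and 7 did not pass, beside 6.52% of all tested genes. At an unadjusted p under 0.05 the count was the same 3 of 10, beside 23.2% of all tested genes. The mutant and wild-type pools did not overlap in those 3 genes, a separation found in 28.3% of all tested genes. The median log2 fold change of the 10 genes was 0.15, beside 0.00 over all tested genes. Aldh1a3 was the one gene of the 10 that still passed when mutant replicate 1, mutant replicate 3, wild-type replicate 2 or wild-type replicate 3 was left out. In bulk samples fewer cells of a type and less RNA per cell cannot be told apart.

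**Figure D1:**
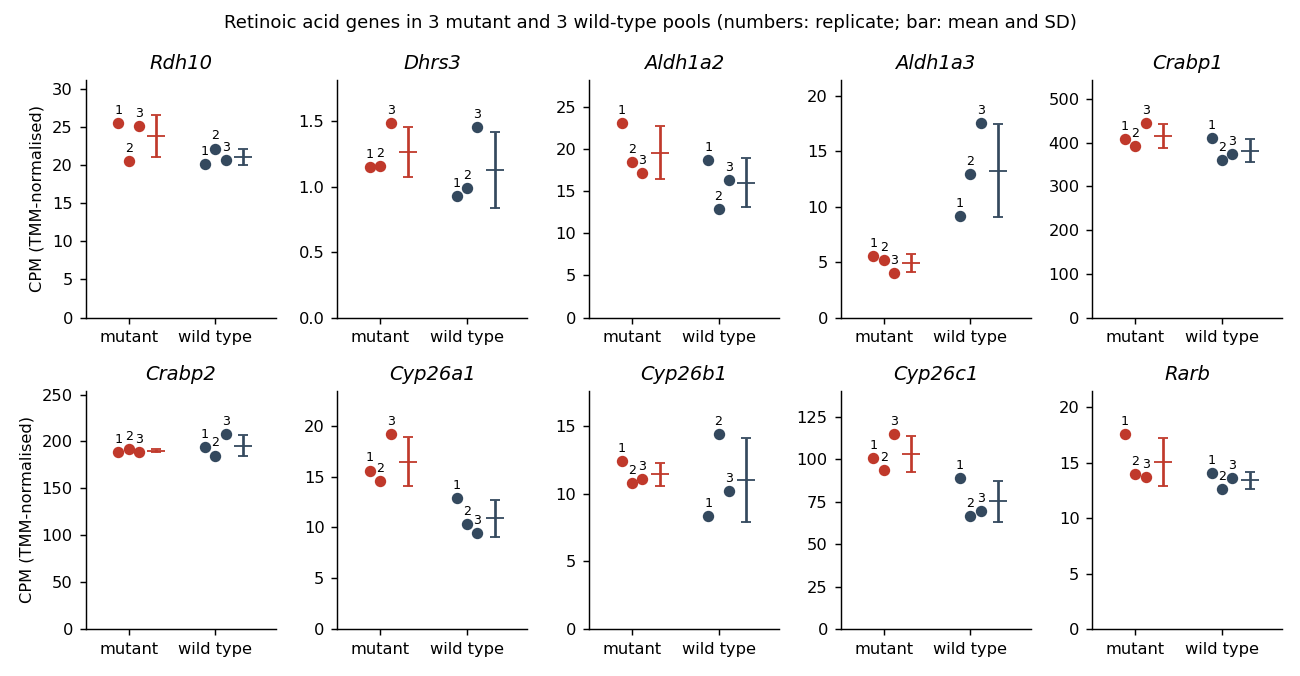
TMM-normalised CPM of each of the 10 genes (vertical axes from 0) in 3 mutant pools (red, left) and 3 wild-type pools (blue, right); the small numbers are replicates and the bars are mean and SD. The mutant pools lie below all wild-type pools for Aldh1a3 and above them for Cyp26a1 and Cyp26c1.

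The gene of the entry step, Rdh10, was read at 25.6, 20.6 and 25.2 CPM in mutant pools and at 20.2, 22.2 and 20.7 CPM in wild-type pools. Mutant replicates 1 and 3 were above all wild-type pools and mutant replicate 2 was among them. The log2 fold change was 0.18 (SE 0.113, edgeR adjusted p = 0.347). Rdh10 lies on chromosome 1 (ENSMUSG00000025921, 16105774 to 16133734, plus strand). Dhrs3, whose product acts in the opposite direction, was close to the limit of detection, with 11 to 14 counts per mutant pool and 7 to 17 per wild-type pool. Its level was 1.27 ± 0.194 CPM in mutant and 1.13 ± 0.294 CPM in wild-type pools (SD, n = 3 each), and the 95% interval of its log2 fold change, -0.67 to 0.90, spans both directions, so that no change was detectable at this depth (edgeR adjusted p = 0.882). Dhrs3, on chromosome 4 (ENSMUSG00000066026, 144892827 to 144928209, plus strand), is itself induced by retinoic acid in many cells.

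Aldh1a3 had the largest change of the 10. It was read at 5.58, 5.16 and 4.06 CPM in mutant pools, against 9.17, 13.0 and 17.6 CPM in wild-type pools. Every mutant pool was below every wild-type pool, and the wild-type pools differed among themselves more than the mutant pools did. The means were 4.93 ± 0.784 CPM in mutant and 13.2 ± 4.2 CPM in wild-type pools (SD, n = 3 each). The log2 fold change was -1.41 (SE 0.231, 95% interval -1.91 to -0.91), or 0.377 of the wild-type level, with an edgeR adjusted p of 0.00362, rank 153 by p among all tested genes. The raw counts behind it were 30 to 68 per mutant pool and 92 to 204 per wild-type pool. The call held in all 18 alternatives, with log2 fold changes from -1.62 to -1.12 and adjusted p from 2.08e-12 to 0.0229. Among the 4 pools with Y-linked reads it was -1.53, and the pools with 1 Y-linked read were at 4.06 CPM (mutant replicate 3) and 9.17 CPM (wild-type replicate 1). Aldh1a3 lies on chromosome 7 (ENSMUSG00000015134, mm10, 66390890 to 66427517, minus strand), with no exon shared with another gene.

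Aldh1a2, which encodes the other retinaldehyde dehydrogenase of the 10, did not pass. It was read at 23.1, 18.4 and 17.1 CPM in mutant pools and at 18.7, 12.9 and 16.3 CPM in wild-type pools, so that the groups overlapped. The log2 fold change was 0.29 (SE 0.148, 95% interval -0.03 to 0.60, edgeR adjusted p = 0.259), and the interval leaves room for a rise of up to 0.60 on the log2 scale. Per kilobase of exon, the scale on which levels of different genes can be set side by side, Aldh1a3 made up 10.6%, 12.1% and 10.5% of the summed level of the pair in mutant pools, against 19.4%, 33.1% and 34.6% in wild-type pools. The summed level itself was 9.69 ± 1.54 CPM per kilobase in mutant and 9.91 ± 1.29 in wild-type pools (SD, n = 3 each), and overlapped. Aldh1a2 lies on chromosome 9 (ENSMUSG00000013584, 71215789 to 71296243, plus strand).

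**Figure D2:**
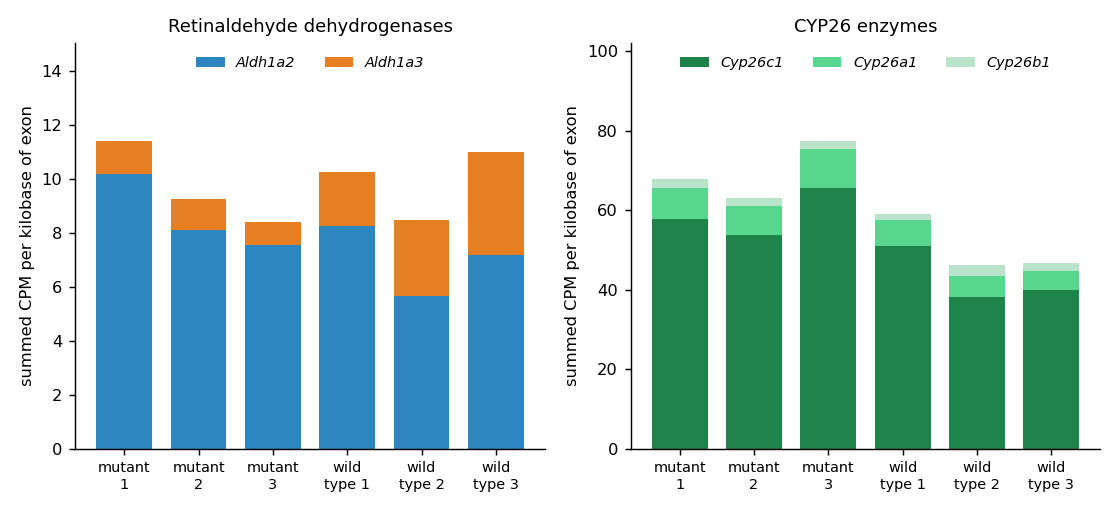
Summed level per kilobase of exon (CPM per kilobase) of Aldh1a2 and Aldh1a3 (left panel) and of the Cyp26 genes (right panel), 1 bar per pool with mutant pools to the left of wild-type pools. The Aldh1a3 part is 10.5% to 12.1% of the bar in mutant and 19.4% to 34.6% in wild-type pools, and the Cyp26 bars are 63.1 to 77.4 in mutant and 46.1 to 59.1 in wild-type pools.

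Among the breakdown genes Cyp26c1 was the most abundant and rose. It was read at 101, 93.8 and 115 CPM in mutant pools and at 89.2, 66.8 and 69.7 CPM in wild-type pools, and the lowest mutant pool was just above the highest wild-type pool. The log2 fold change was 0.45 (SE 0.11, 95% interval 0.21 to 0.69), with an edgeR adjusted p of 0.0311. Cyp26a1, the gene with the DR5 element printed above, was read at 15.6, 14.6 and 19.2 CPM in mutant pools and at 12.9, 10.3 and 9.47 CPM in wild-type pools. It rose by 0.58 on the log2 scale (SE 0.152, 95% interval 0.26 to 0.91, edgeR adjusted p = 0.0318), again without overlap. Cyp26c1 (ENSMUSG00000062432, 37685581 to 37693398) and Cyp26a1 (ENSMUSG00000024987, 37697798 to 37701536) are neighbours on the plus strand of chromosome 19, 4400 bases apart and with no exon in common.

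Whether the rises of Cyp26c1 and Cyp26a1 passed the threshold depended on single pools. When mutant replicate 1 was left out the adjusted p was 0.098 for Cyp26c1 and 0.0918 for Cyp26a1. It was 0.114 and 0.136 for the same genes without mutant replicate 3. Leaving out wild-type replicate 2 gave 0.124 and 0.109, and leaving out wild-type replicate 3 gave 0.0619 and 0.0631. The calls held in the other 14 of 18 alternatives. In every alternative the log2 fold change stayed positive, from 0.37 to 0.59 for Cyp26c1 and from 0.47 to 0.74 for Cyp26a1. Among the 4 pools with Y-linked reads they were 0.51 and 0.62.

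Cyp26b1, the third gene of the family, was read at 12.4, 10.8 and 11.1 CPM in mutant pools and at 8.34, 14.4 and 10.2 CPM in wild-type pools. All mutant values lay within the wild-type range. The log2 fold change was 0.09 (SE 0.178, 95% interval -0.29 to 0.47, edgeR adjusted p = 0.80). It lies on chromosome 6 (ENSMUSG00000063415, 84571414 to 84593908, minus strand). Summed per kilobase of exon, the Cyp26 genes reached 67.9, 63.1 and 77.4 CPM per kilobase in mutant pools and 59.1, 46.1 and 46.6 in wild-type pools. The mutant pools lay above the wild-type pools. Cyp26c1 made up 85.0% ± 0.162 of that sum in mutant and 85.0% ± 1.84 in wild-type pools (SD, n = 3 each). Cyp26a1 made up 11.9% ± 0.523 in mutant and 10.8% ± 0.522 in wild-type pools (SD, n = 3 each), and those pools did not overlap. The sum divided by that of Aldh1a2 and Aldh1a3 was 5.96, 6.82 and 9.19 in mutant pools and 5.77, 5.43 and 4.24 in wild-type pools. These sums and ratios are descriptions with no test, because the genes were chosen with earlier results of these data known.

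**Figure D3:**
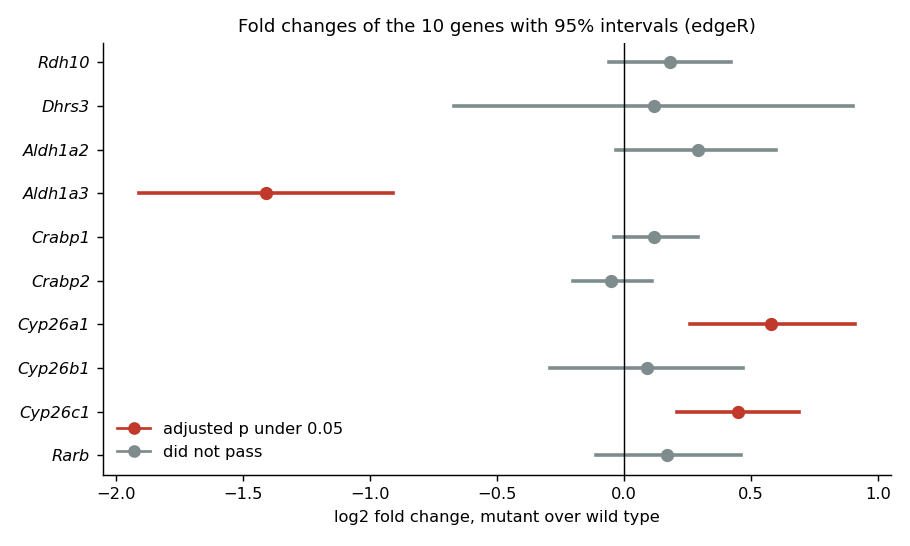
Log2 fold change, mutant over wild type (horizontal axis), of the 10 genes in the order of the pathway (vertical axis); points are edgeR estimates, lines are 95% intervals, and red marks an adjusted p under 0.05. The intervals of Aldh1a3 (-1.91 to -0.91), Cyp26a1 (0.26 to 0.91) and Cyp26c1 (0.21 to 0.69) lie clear of 0, and that of Dhrs3 is the widest.

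The binding proteins had the highest levels of the 10 and the narrowest intervals. Crabp1, a gene long used to mark hindbrain and migrating neural crest, was read at 408, 393 and 446 CPM in mutant pools and at 411, 361 and 374 CPM in wild-type pools, and the groups overlapped. Its log2 fold change was 0.12 (SE 0.0779, 95% interval -0.04 to 0.29, edgeR adjusted p = 0.375). Crabp2, whose product hands retinoic acid to its receptors, was read at 189, 192 and 189 CPM in mutant pools and at 194, 185 and 208 CPM in wild-type pools, and every mutant value lay within the wild-type range. Its log2 fold change was -0.05 (SE 0.0723, 95% interval -0.20 to 0.11, edgeR adjusted p = 0.745). The intervals leave no room for a change of Aldh1a3's size in either gene. Over the same pools the crest marker Sox10 fell by 1.15 on the log2 scale (SE 0.122, edgeR adjusted p = 5.68e-05). Crabp2 lies on chromosome 3 (ENSMUSG00000004885, 87948666 to 87953376), 8.22 Mb from Sf3b4. Crabp1 lies on chromosome 9 (ENSMUSG00000032291, 54764748 to 54773110).

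Rarb, a receptor gene that retinoic acid induces through the DR5 element printed above, was read at 17.6, 14.0 and 13.7 CPM in mutant pools and at 14.1, 12.6 and 13.6 CPM in wild-type pools. Mutant replicate 1 was the highest, and the other mutant pools lay within the wild-type range. The log2 fold change was 0.17 (SE 0.134, 95% interval -0.11 to 0.46, edgeR adjusted p = 0.465). Rarb lies on chromosome 14 (ENSMUSG00000017491, 16430839 to 16819156, minus strand). Its interval overlaps that of Cyp26a1 (0.26 to 0.91), and the difference between the genes was not tested. Exons of opposite-strand genes cover 38.4% of the Rarb exons, those of Top2b among them. Top2b was read at 239 ± 16.8 CPM in mutant and 263 ± 35.8 CPM in wild-type pools (SD, n = 3 each). The sources used here do not say whether the counting used strand. Only 6 tested genes had a DR5 in a RefSeq window, and of these Cyp26a1 alone was called (16.7%, beside 6.77% of the 10124 tested genes with a window). The log2 fold changes of the others were -0.97 for Hbb-y, -0.48 for Blvrb, -0.14 for Cfap45, 0.17 for Rarb and 0.24 for Syndig1.

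Levels per kilobase of exon spread over a wide range, from Crabp1 at 518 ± 33.7 in mutant and 476 ± 32.6 CPM per kilobase in wild-type pools down to Dhrs3 at 0.432 ± 0.0664 in mutant and 0.385 ± 0.1 in wild-type pools (SD, n = 3 each). Crabp2 came next to Crabp1 with 144 ± 1.09 in mutant and 148 ± 8.96 in wild-type pools, then Cyp26c1 with 59.0 ± 6.05 in mutant and 43.1 ± 6.99 in wild-type pools. These 3 genes did not overlap each other in any pool. Aldh1a2, Cyp26a1 and Rdh10 followed, with means of 8.62, 8.31 and 5.72 in mutant pools and of 7.05, 5.49 and 5.05 in wild-type pools. Aldh1a2 and Cyp26a1 overlapped in both genotypes, and Cyp26a1 and Rdh10 overlapped in wild-type pools but not in mutant pools. In wild-type pools Aldh1a3 (2.87 ± 0.91), Rarb (2.55 ± 0.147) and Cyp26b1 (2.06 ± 0.58) could not be ranked beyond their spread. In mutant pools Aldh1a3 (1.07 ± 0.17) stood below both Rarb (2.86 ± 0.41) and Cyp26b1 (2.14 ± 0.156) in every pool.

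**Figure D4:**
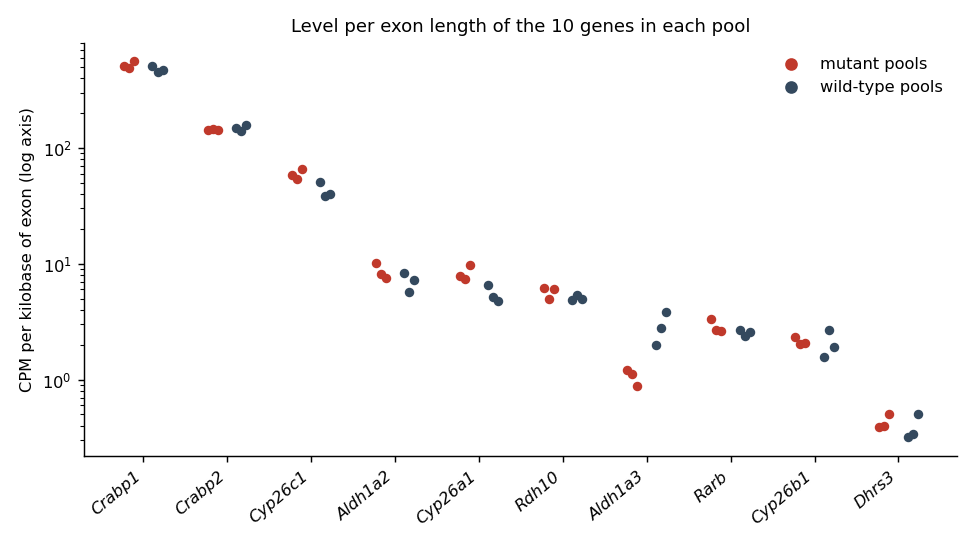
Level per kilobase of exon (log axis) of the 10 genes in every pool, ordered by the wild-type mean, with mutant pools in red to the left of wild-type pools in blue. Crabp1, Crabp2 and Cyp26c1 stand apart at the top and Dhrs3 at the bottom; Aldh1a3 lies at 0.88 to 1.21 CPM per kilobase in mutant and 1.99 to 3.81 in wild-type pools.

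Summed marker levels of some head tissues did not overlap between the genotypes, and these sums were not tested. The summed level of 9 genes of migrating neural crest was 58.9 to 68.2 CPM per kilobase in mutant and 82.4 to 91.9 in wild-type pools, and 5 of the 9 fell, led by Sox10 and Tfap2b (-0.95), beside 3.88% of all tested genes that fell. The sum of 14 surface ectoderm and placode genes was 262 to 294 in mutant and 222 to 240.3 in wild-type pools. Krt8 (mean 82.9 in mutant and 67.7 in wild-type pools) and Krt18 (90.6 and 76.9) were its largest parts. Neither passed, and the pools overlapped for Krt18. In that list 1 gene rose and 13 did not pass, beside 2.65% of all tested genes that rose. The sum of 12 genes of the anterior forebrain and eye field was 79.8 to 88.6 in mutant and 66.2 to 76.7 in wild-type pools, and 2 of the 11 tested, Hesx1 (0.64) and Six6 (0.57), rose. The calls of Hesx1 and Six6 were each lost when mutant replicate 1, mutant replicate 2 or wild-type replicate 2 was left out, with log2 fold changes from 0.44 to 0.72 in those settings, and those of Hesx1 (0.57) and Six6 (0.66) also without mutant replicate 3. Both were lost among the 4 pools with Y-linked reads (0.66 and 0.68), and that of Six6 also with DESeq2 (adjusted p = 0.0695), limma-voom (0.0585) and edgeR without robust estimation (0.0542). None of the markers in these lists was at 0 in all pools. The ectoderm and eye field lists mark tissues in or near which Aldh1a3 is known. The part of any of these tissues in the changes of Aldh1a3, Cyp26a1 and Cyp26c1 was not tested.

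Head mesoderm, in which Cyp26c1 is known, had a sum of 18.1 to 19.4 CPM per kilobase over 7 genes in mutant and 15.7 to 17.4 in wild-type pools, with 1 gene called. The 9 hindbrain genes summed to 48.8 to 54.0 in mutant and 41.6 to 49.5 in wild-type pools, and none of them passed. Foregut endoderm (7 genes) lay at 16.8 to 17.8 in mutant and 14.6 to 16.6 in wild-type pools, with no gene called, and endothelium (8 genes) at 53.2 to 55.2 in mutant and 42.7 to 49.5 in wild-type pools, with Kdr called (0.31). The call of Kdr was lost when mutant replicate 1 (0.29), mutant replicate 2 (0.29), mutant replicate 3 (0.35) or wild-type replicate 2 (0.25) was left out, and with limma-voom (0.31, adjusted p = 0.0517). The remaining lists overlapped between genotypes. Somite and trunk mesoderm, where Aldh1a2 is strong, summed to 5.96 to 7.62 in mutant and 5.75 to 7.87 in wild-type pools. Heart genes summed to 22.0 ± 2.44 in mutant and 24.8 ± 13.4 in wild-type pools (SD, n = 3 each), visceral endoderm and yolk sac to 1.95 to 3.26 in mutant and 1.55 to 2.22 in wild-type pools, and primitive erythroid genes to 108 to 232 in mutant and 141 to 359.9 in wild-type pools. The part of these tissues in the results was not tested.

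The wider pathway was read from 5 lists holding 76 other genes, of which 47 passed the filter on low counts. None rose and 3 fell, beside 6.52% of all tested genes called, and the median log2 fold change was 0.00, as over all tested genes. The mutant and wild-type pools did not overlap in 16 of the 47, beside 28.3% of all tested genes.

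Upstream of the enzymes, only 3 of 10 genes of retinol uptake, transport and storage could be tested and none passed. The smallest p in that list was that of Stra6, the cell-surface receptor that takes up retinol, at 8.21 ± 2.04 CPM in mutant and 10.1 ± 2.56 CPM in wild-type pools (SD, n = 3 each), with a log2 fold change of -0.33 (edgeR adjusted p = 0.372). Of 22 other enzymes of retinol and retinaldehyde metabolism 10 were tested and none passed. The nearest was Rdh11, a retinaldehyde reductase gene, with 25.9, 21.8 and 21.4 CPM in mutant and 18.3, 18.4 and 18.3 CPM in wild-type pools, without overlap (log2 fold change 0.34, edgeR adjusted p = 0.0867). Aldh1a1, the remaining retinaldehyde dehydrogenase gene of the family, had only 4 to 7 counts per mutant pool and 2 to 7 per wild-type pool and was not tested.

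Downstream, none of 7 other receptors and ligand shuttles passed, with log2 fold changes from -0.22 to 0.13. The smallest p there was that of Rxrb, a partner of the retinoic acid receptors, at 50.7 ± 3.08 CPM in mutant and 57.1 ± 3.44 CPM in wild-type pools (SD, n = 3 each), with a log2 fold change of -0.18 and an edgeR adjusted p of 0.237. Of 11 coregulators of nuclear receptors 2 fell, none rose and 9 did not pass, beside 6.52% of all tested genes called. Rere, an atrophin-family coregulator needed for normal retinoic acid signalling in the mouse embryo, was read at 72.1, 81.8 and 67.4 CPM in mutant and 96.2, 106 and 86.6 CPM in wild-type pools. It fell by 0.38 on the log2 scale (SE 0.093, edgeR adjusted p = 0.0241). Leaving out mutant replicate 1 ended the call of Rere (log2 fold change -0.36, adjusted p = 0.129), as did leaving out mutant replicate 3 (-0.32, 0.118) or wild-type replicate 2 (-0.30, 0.121). It was lost as well among the 4 pools with Y-linked reads (-0.32, 0.129).

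Among 26 genes known to respond to retinoic acid, 16 were tested, 1 fell, none rose and 15 did not pass, beside 6.52% of all tested genes called, a share close to that of the list. The gene that fell was Nr2f1, an orphan nuclear receptor gene (COUP-TFI) of neural crest and brain, at 51.5, 48.1 and 47.0 CPM in mutant and 69.3, 93.2 and 70.2 CPM in wild-type pools. Its log2 fold change was -0.66 (SE 0.109, edgeR adjusted p = 0.00261), and the call held in all 18 alternatives. Of the hindbrain targets of retinoic acid, Hoxb1, Hoxa2 and Hoxb2 did not pass. Hoxb1 had a log2 fold change of 0.02 (edgeR adjusted p = 0.971). Hoxa2 (0.54) and Hoxb2 (0.36), which lay higher in every mutant pool than in every wild-type pool, each had an adjusted p of 0.123. Exons of opposite-strand genes cover 27.3% of those of Hoxb2, and a gene on the same strand covers 15% of those of Hoxa2.

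**Figure D5:**
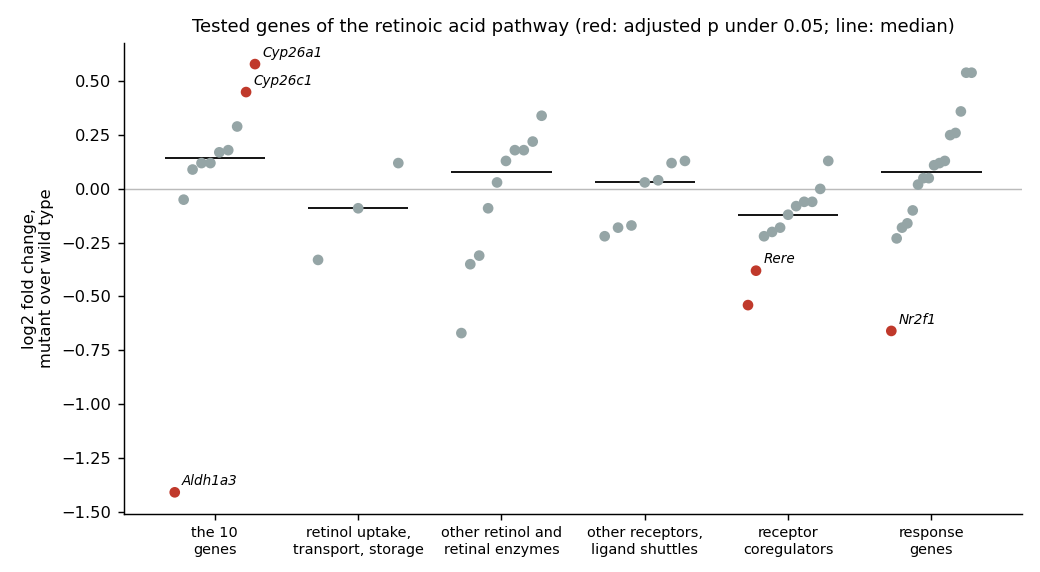
Log2 fold change, mutant over wild type (vertical axis), of the 10 genes and of the tested members of 5 other lists of the retinoic acid pathway (columns); red points passed an adjusted p of 0.05, most of them named, and the horizontal lines are medians. Aldh1a3 (-1.41) lies far below all other points, and Rere and Nr2f1 are among the 3 called genes outside the 10.

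Genes whose log2 CPM followed that of Aldh1a3 most closely over the 6 pools were Gpcpd1 (Pearson r = 0.992), Cdpf1 (0.991) and Taf1 (0.987), among 10180 protein-coding genes with a mean of at least 5 CPM. Their own fold changes were small, with log2 values of -0.29, -0.27 and -0.18, and none passed (edgeR adjusted p = 0.17, 0.344 and 0.138). With 6 points from both genotypes such values describe these pools only.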

How the data were processed

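Total RNA (TruSeq Standard Total RNA kit, per the labels' protocols) of 6 pools of heads was sequenced. The authors deposited raw counts per Ensembl gene ID, 1 file per pool. Per the submitters' processing notes the genome build was mm10. The sources used here name no aligner, counting program or use of strand. Samples were grouped by title. Symbols, coordinates and exon lengths came from GENCODE M21 (54495 of 54532 IDs matched). The 37 mitochondrial genes are listed at 0.

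Genes were kept with filterByExpr, scaled by TMM and tested with edgeR's quasi-likelihood test (robust, two-sided, mutant over wild type, Benjamini-Hochberg over 14008 genes, threshold 0.05). The SE is the log2 fold change divided by the square root of F, and the 95% interval uses the fit's degrees of freedom. No pair of same-genotype pools was a repeat of 1 library, since their counts gave a chi-square of 2.81 to 9.19 for each degree of freedom.

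The 10 genes, the lists and the tests were chosen with earlier results of these data known. Named genes are the 10, Sf3b4, up to 4 called members of each pathway list (else the smallest p), up to 2 called markers per tissue list, and the 3 genes most correlated with the member of smallest p; others were named after their values were seen. Some genes that this rule names are not reported here. The 18 alternatives were DESeq2, limma-voom, 3 other scalings, 2 other filters, no robust estimation, the replicate block, each pool left out, the pools with over 10 Y-linked reads, a length and GC correction and a threshold of 0.1. The threshold of 0.1 could not end any call, and the filter of 1 CPM in 3 pools gave the same number of calls as the main fit. The fits were tested on simulated data. Versions were edgeR 4.0.16, DESeq2 1.42.0 and limma 3.58.1 in R 4.3.3, with Python 3.11.15.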

Additional observations from a re-analysis of the deposited data

How the results depend on the processing

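Over all tested genes the number called was 230 to 1810 with 1 pool left out, 535 among the 4 pools that held Y-linked reads and 1550 at a threshold of 0.1. It stayed within 1.5 times of 914 in the other 10 alternatives. Of the 10 genes 1 to 3 were called with 1 pool left out and 3 in each of the other 12 alternatives. Of the 76 other pathway genes 1 to 4 were called with 1 pool left out and 1 (Nr2f1) among the pools with Y-linked reads. Sf3b4 ranged from -0.32 to -0.17 on the log2 scale with 1 pool left out, and it passed without wild-type replicate 3 (adjusted p = 0.0288) and with the length and GC correction (-0.26, adjusted p = 0.0432). Fold changes that turned sign belonged to genes that never passed. Cyp26b1 had -0.07 without wild-type replicate 1 and -0.05 among pools with Y-linked reads, and ranged from -0.07 to 0.31 with 1 pool left out. Dhrs3 had -0.02 and -0.13 in those settings and ranged from -0.02 to 0.38. Crabp2 had 0.00 without wild-type replicate 3 and ranged from -0.08 to 0.00. The cause was not tested. A filter of 1 CPM in 3 pools kept the same number of genes, 14008. The summed level of the Cyp26 genes, mutant over wild type, was 1.37 per kilobase and 1.35 without division by length, and that of Rdh10, Aldh1a2 and Aldh1a3 was 1.03 and 0.961.

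No sign was seen that replicate numbers pair the pools, though a check on 3 pools per genotype cannot exclude it. Deviations of same-numbered pools from their group means correlated at -0.161, 0.0515 and -0.0598. Those of pools with different numbers correlated at -0.208 to 0.274. With the replicate number as a block 694 genes were called, and the same 3 of the 10 passed, Aldh1a3 with -1.35, Cyp26a1 with 0.59 and Cyp26c1 with 0.46; Sf3b4 was at -0.24. Under the block the calls of the markers Six6 (0.57, adjusted p = 0.0627) and Kdr (0.31, 0.0532) were lost. Genes with few counts, such as Dhrs3, limit what this depth can show.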

Other observations

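Some pathway genes had too few counts for the test and are given as counts. Rarres1, a gene named for its response to retinoic acid receptor ligands, had 0 counts in all 3 mutant pools and 4, 2 and 3 counts in wild-type pools. Bco1, the enzyme gene that cleaves beta-carotene into retinaldehyde, had 3, 3 and 7 counts in mutant pools and 1, 0 and 0 in wild-type pools. These genes were picked after their values were seen, and no test was made. No count was found in any pool for Stra8, Hoxa4, Hoxd4, Rdh7 or Sdr16c5.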
